A study of Mus musculus with 391 samples.

Results

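The 9 genes described here encode 5 semaphorins (Sema3f, Sema4d, Sema6a, Sema6d and Sema7a) and 4 plexins (Plxnd1, Plxna2, Plxnb2 and Plxnc1). They were chosen by name, 9 of the 56941 genes in the count table, with earlier results of these data known. Their levels and cell-to-cell spread were read in the 2 classes of cells that the study deposited. Adult mouse brains were the source: their vascular fragments were dissociated, single cells were sorted into plates, and each was sequenced by Smart-seq2, which reads whole transcripts without molecular identifiers. The labels call 280 cells microglia, the resident macrophages of the brain, and 111 cells endothelial, the cells that line its vessels. The deposited cell table codes these classes MG and CP-EC, the second of which it does not spell out. The sources used here do not give strain, exact age, sex, treatment or the animal behind each cell, so each class counts as 1 sample, no test between classes was made, and cells are described but not treated as replicates.

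Semaphorins are secreted or membrane-bound guidance proteins, first known from growing axons, and plexins are their main receptors. Class 3 semaphorins are secreted and mostly need a neuropilin beside the plexin, whereas classes 4 and 6 span the membrane and class 7 is held by a lipid anchor. On binding, the cytoplasmic part of the plexin acts on small GTPases and so loosens integrin contacts and the actin skeleton. In vessels this system steers sprouts and sets their spacing, and in macrophages it takes part in migration and in contacts with other immune cells.

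The labels were first set against marker genes. The 10 endothelial markers summed to between 21727 and 26096 CPM in the endothelial class over its 4 plates and to 225 and 293 CPM in the microglia class over its 2 plates. The 6 markers of fenestrated endothelium, whose cells have pores, summed to 21025 CPM in the endothelial class and 25.8 in the microglia class. Plvap, on that list, had 10 or more reads in 111 of 111 endothelial cells. The endothelial levels below are therefore those of Plvap-bearing cells, not of brain endothelium at large. The 10 macrophage markers summed to 29302 and 23073 CPM in the microglia class and to between 13.1 and 80.6 CPM in the endothelial class. The 10 microglia markers parted the classes less, with 7941 CPM in the microglia class and 4350 in the endothelial, since Sparc (983 and 3373 CPM) and Adgrg1 (211 and 860 CPM) stood higher in endothelial cells while 8 of 10 passed 4-fold toward the microglia class. Markers of mural cells, the cells around vessels, summed to 9.35 CPM on endothelial plate A and 467 on plate D, and their part in the results was not tested. No macrophage marker and no endothelial marker was at 0 reads in either class. CPM here means the reads of a gene divided by all gene reads and scaled to the usual CPM unit, pooled over the cells of a class. The median depth was 146506 gene reads per cell in the microglia class (39876 to 504875) and 174345 in the endothelial class (83954 to 602175). Of 111 endothelial cells, 1 had a macrophage marker sum, 2637 CPM, above the lowest in the microglia class, 2169 CPM. It sat on plate C and carried 5 of the 6 genes that stood higher in endothelial cells. No microglia-class cell reached the lowest endothelial marker sum of an endothelial cell (4795 against 9735 CPM).

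The classes divided the 9 genes. Sema3f, Sema6a, Sema6d, Sema7a, Plxnd1 and Plxna2 were higher in endothelial cells by 4-fold or more. Sema4d and Plxnc1 were higher in the microglia class by the same margin, and Plxnb2 lay between. So 6 of 9 were higher in endothelial cells, against 11.7% of the 14989 genes that reached 1 CPM in a class, and 2 of 9 were higher in the microglia class, against 19.9%. In either direction 31.7% of genes passed. Within plate A, 5 of the 9 genes were called for endothelial cells (10.9% of genes) and 3 for the microglia class (46.5%, and 57.4% in either direction), and within plate B 5 (11.5%) and 2 (48.4%, and 59.9% in either direction). The fold was read on the scale of log2(CPM + 1), where the median of microglia class over endothelial class was -4.30 for the 9 genes and 0.36 for all 14989. All 9 passed the filter of 1 CPM. They were chosen with earlier results of these data known, so these counts and the median may partly follow from the choice. A pooled level cannot tell fewer cells with a transcript from less of it per cell, so the share of cells is given beside the class level of each of the 9 genes. Parentheses after CPM values and folds hold exact 95% intervals, and those after shares 95% Clopper-Pearson intervals. Both cover counting error only, since reads without molecular identifiers are not independent molecules and cells of an animal are not independent.

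A single read was a weak sign of expression. Csf1r, a growth factor receptor of macrophages, had at least 1 read in 39.6% of endothelial cells but 10 or more in 0.901%, and Kdr, a VEGF receptor of endothelium, had at least 1 read in 28.6% of microglia-class cells but 10 or more in 1.07%. A cell is therefore said below to carry a transcript when it had 10 or more reads of it.

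To show what lies upstream of genes that the classes divide, the 250 bases before the start are printed for the 4 of the 9 genes with a single start in the RefSeq promoter table (GRCm38.p6), which held 7 of them. Plxnd1, Plxna2 and Sema7a were higher in endothelial cells and Plxnc1 in the microglia class. Each is written 5′ to 3′ on the gene's strand, with capitals marking the ETS core GGAA or its reverse complement TTCC. The intervals are chr6:115995006-115995255 (minus strand) for Plxnd1, chr1:194619579-194619828 (plus) for Plxna2, chr9:57939862-57940111 (plus) for Sema7a and chr10:94944846-94945095 (minus) for Plxnc1.
Plxnd1: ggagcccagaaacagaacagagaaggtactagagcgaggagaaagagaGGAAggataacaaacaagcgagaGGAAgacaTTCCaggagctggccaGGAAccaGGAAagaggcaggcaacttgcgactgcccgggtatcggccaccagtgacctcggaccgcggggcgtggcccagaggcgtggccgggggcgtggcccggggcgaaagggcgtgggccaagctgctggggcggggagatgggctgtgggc
Plxna2: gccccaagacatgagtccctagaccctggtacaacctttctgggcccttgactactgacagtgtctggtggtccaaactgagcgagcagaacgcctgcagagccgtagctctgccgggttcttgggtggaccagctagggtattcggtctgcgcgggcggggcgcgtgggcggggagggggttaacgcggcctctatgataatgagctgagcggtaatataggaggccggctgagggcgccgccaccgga
Sema7a: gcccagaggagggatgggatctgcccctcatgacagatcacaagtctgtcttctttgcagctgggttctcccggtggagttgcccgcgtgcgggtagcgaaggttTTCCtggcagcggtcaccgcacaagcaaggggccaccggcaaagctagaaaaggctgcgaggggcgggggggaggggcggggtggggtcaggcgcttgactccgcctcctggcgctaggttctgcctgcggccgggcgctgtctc
Plxnc1: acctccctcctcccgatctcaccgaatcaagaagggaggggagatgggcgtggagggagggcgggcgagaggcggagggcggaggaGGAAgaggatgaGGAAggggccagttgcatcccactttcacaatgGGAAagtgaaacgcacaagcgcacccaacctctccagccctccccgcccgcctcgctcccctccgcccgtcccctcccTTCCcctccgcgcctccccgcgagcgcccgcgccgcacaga
The core was matched 5 times for Plxnd1, 0 times for Plxna2, 1 time for Sema7a and 4 times for Plxnc1, on either strand, and 93.4% of all 32851 windows of this length hold at least 1 match. The longer purine-rich element GAGGAA, which contains the core, was matched 2 times each for Plxnd1 and Plxnc1, of 23.3% of windows with a match. The 4 printed windows were rich in G and C, from 62.8% in Plxna2 to 68.8% in Plxnc1, against a median of 52.4% over all windows. They held 16 to 22 CpG pairs against a median of 6. The windows of genes with more starts, not printed, were not all alike. The 3 of Sema4d had 52% to 55.2% G and C and 1 or 2 CpG pairs. Those of Sema6d had 45.2% and 52.4% with 6 and 9 pairs, and those of Plxnb2 63.6% and 69.2% with 13 and 20. The GC box GGGCGG was matched in each of the 4, in 8 of the 11 windows of the 7 genes and in 32.7% of all windows. The TATA element TATAAA was matched in 0 of the 11 and in 12.4% of all windows. A match describes letters only, and no binding was measured.

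Among the ligands of endothelial cells, Sema3f, a secreted class 3 semaphorin that binds mostly through Nrp2, was the most one-sided. Its endothelial level was 282 (275 to 289) CPM, and it was represented by 1 read in 1 cell of the whole microglia class, a ratio of 13386-fold (2402 to 528823). Over endothelial plates A, B, C and D it stood at 212, 306, 265 and 301 CPM, but on plate A, with 7 cells, 1 cell gave 90.7% of the reads and the level was 23.1 CPM without it. Single cells also weighed on the other genes on the small plates, to differing degrees. For Sema7a, 1 cell gave 93.1% of the endothelial reads on plate A and 36.8% on plate B. Of the endothelial plate levels above 0, 6 of 6 on plate A, 6 of 7 on plate B, 3 of 9 on plate C and 2 of 8 on plate D fell by more than 1.5 times without the cell with most reads of the gene, an alternative chosen after seeing the data. Of 111 endothelial cells, 53 carried it (47.7%, 38.2 to 57.4), 25 had 1 to 9 reads and the others none. Per cell the level ran from 0 through a median of 28.8 to 3731 CPM, and the cells that carried it had a median of 509 CPM. With 0 of 280 carriers, the limit that a count of 0 allows (3 cells of the total) was a share of 1.07%.

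Sema6d, a transmembrane ligand of class A plexins, had an endothelial level of 445 (436 to 454) CPM, against 21.7 (20.4 to 23.0) in the microglia class. The fold of the classes was 20.5 (19.2 to 21.9). It was carried by the same number of endothelial cells as Sema3f, 53 of 111, and by 21 of 280 microglia-class cells (7.5%, 4.70 to 11.2). The plates held 117 and 224 CPM (A and B), 634 (C) and 329 (D). Within plate A the endothelial level was 3.41-fold above that of the microglia class (34.5 CPM), under the 4-fold mark, and within plate B it was 15.3-fold above (14.7 CPM). Without the cell with most reads in each class these folds were 2.41 and 4.75.

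Sema6a, the close relative of Sema6d, had an endothelial level of 173 (167 to 179) CPM against 7.56 (6.80 to 8.38) in the microglia class, 22.9-fold apart (20.5 to 25.6). The plates held 318 and 270 CPM (A and B), 177 (C) and 129 (D), and without 1 cell each plates A and B held 154 and 174 CPM. Endothelial carriers were 29 of 111 (26.1%, 18.2 to 35.3). In the microglia class 3 of 280 cells carried it and 1 of these gave 61.3% of the class's reads, so the level there rests on that cell. Without the cell with most reads in each class the log2 ratio moved from -4.34 to -5.28. The endothelial marker sum of the 3 cells had a median of 918 CPM, against 53.0 CPM in the other microglia-class cells, and its part in the Sema6a reads was not tested.

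Sema7a, the lipid-anchored semaphorin that binds Plxnc1 and beta-1 integrins, reached 168 (163 to 174) CPM in the endothelial class against 0.442 (0.274 to 0.676) in the microglia class, 381-fold apart (249 to 615). It was carried by 32 of 111 endothelial cells (28.8%, 20.6 to 38.2) and by 0 of 280 microglia-class cells, of which 14 had 1 to 9 reads. Endothelial plates A to D held 60.3, 91, 215 and 148 CPM, and all 4 lay above both microglia-class plates (0.179 and 0.586 CPM). On plate A 1 cell gave 93.1% of the reads, and the level was 5.01 CPM without it.

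Of the receptors, Plxnd1, the plexin of endothelium that binds Sema3e directly and other class 3 semaphorins with neuropilins, reached 332 (324 to 340) CPM in the endothelial class against 51 (49.0 to 53.1) in the microglia class. The 6.51-fold difference (6.22 to 6.82) was the smallest of the 6 endothelial genes. Endothelial carriers were 45 of 111 (40.5%, 31.3 to 50.3) with a median of 554 CPM. In the microglia class 16 of 280 (5.71%, 3.30 to 9.11) carried it with a median of 493 CPM. The mark of 10 reads leaves low cells out of both medians, so their nearness is partly set by it. In the microglia class and endothelial cells, carrier medians were 558 and 492 CPM for Plxnb2 and 293 and 530 CPM for Sema6d. Within plate A the fold was 12 and within plate B 3.74, under the 4-fold mark, and without the cell with most reads in each class it was 12.0 and 2.64. The 16 microglia-class carriers had an endothelial marker sum with a median of 33.1 and a highest value of 275 CPM, against 9735 CPM in the lowest endothelial cell.

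Plxna2, a receptor of class 6 semaphorins, reached 231 (224 to 237) CPM in the endothelial class against 0.21 (0.101 to 0.387) in the microglia class, 1096-fold apart (596 to 2288). It was carried by 35 of 111 endothelial cells (31.5%, 23.0 to 41.0) and by none of 280 microglia-class cells. Plates A to D held 153, 428, 218 and 205 CPM. The first 2 values each rested on 1 cell, without which plates A and B held 16.9 and 83.2 CPM, still above the microglia class there (0.179 and 0.228 CPM).

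Sema4d, the membrane semaphorin of immune cells that signals through class B plexins and Cd72, was the reverse image of Sema3f. It stood at 208 (204 to 212) CPM in the microglia class, 219 on plate A and 202 on plate B, and was represented by 2 reads in the endothelial class, a ratio of 2223-fold (615 to 18362). It was carried by 71 of 280 microglia-class cells (25.4%, 20.4 to 30.9) with a median of 627 CPM, and by 0 of 111 endothelial cells. A count of 0 there allows a share of up to 2.70%.

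Plxnb2, a receptor of Sema4d and other class 4 semaphorins, was the gene the classes shared. The microglia class held 255 (250.4 to 259.5) CPM and the endothelial class 99 (94.8 to 103), a fold of 2.58 (2.46 to 2.70). At least 1 read was present in 54.3% and 50.5% of cells, close shares, but 93 of 280 microglia-class cells (33.2%, 27.7 to 39.1) and 14 of 111 endothelial cells (12.6%, 7.07 to 20.3) carried it. Most endothelial cells with a read thus had few: 42 had 1 to 9 reads. The plates with both classes gave different folds. On plate B the microglia class held 285 CPM and the 10 endothelial cells held 238, 1.20-fold apart. Of those endothelial reads 89.1% came from 1 cell, and without the cell with most reads in each class the levels were 273 and 30.2 CPM, 9.03-fold apart. On plates C and D, too, single cells gave 46.7% and 51.2% of the reads (90.1 and 85.9 CPM, and 49.2 and 42.7 without them). On plate A the microglia class held 199.7 CPM and the 7 endothelial cells had 0 reads, at least 64-fold lower by a floor of 3 reads over the plate's cells of a class.

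Plxnc1, the receptor of Sema7a, reached 66.2 (63.9 to 68.6) CPM in the microglia class against 7.68 (6.55 to 8.95) in endothelial cells, 8.63-fold apart (7.37 to 10.2). Carriers were 27 of 280 (9.64%, 6.45 to 13.7) and 3 of 111 (2.70%, 0.561 to 7.70). All 3 endothelial carriers came from plates C and D, and 1 of them gave 54.9% of the endothelial reads. Without the cell with most reads in each class the log2 ratio moved from 2.95 to 3.73. Plates A and B had 0 endothelial reads. With each 0 set to 3 reads, the microglia class was 16.7-fold and 52.3-fold higher within them. These folds cover the counting of reads only. Since 3 of 111 endothelial cells carried the gene, the 7 and 10 endothelial cells of these plates may hold no carrier. Toward the microglia class 46.5% and 48.4% of all genes passed 4-fold on plates A and B.

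**Figure D1:**
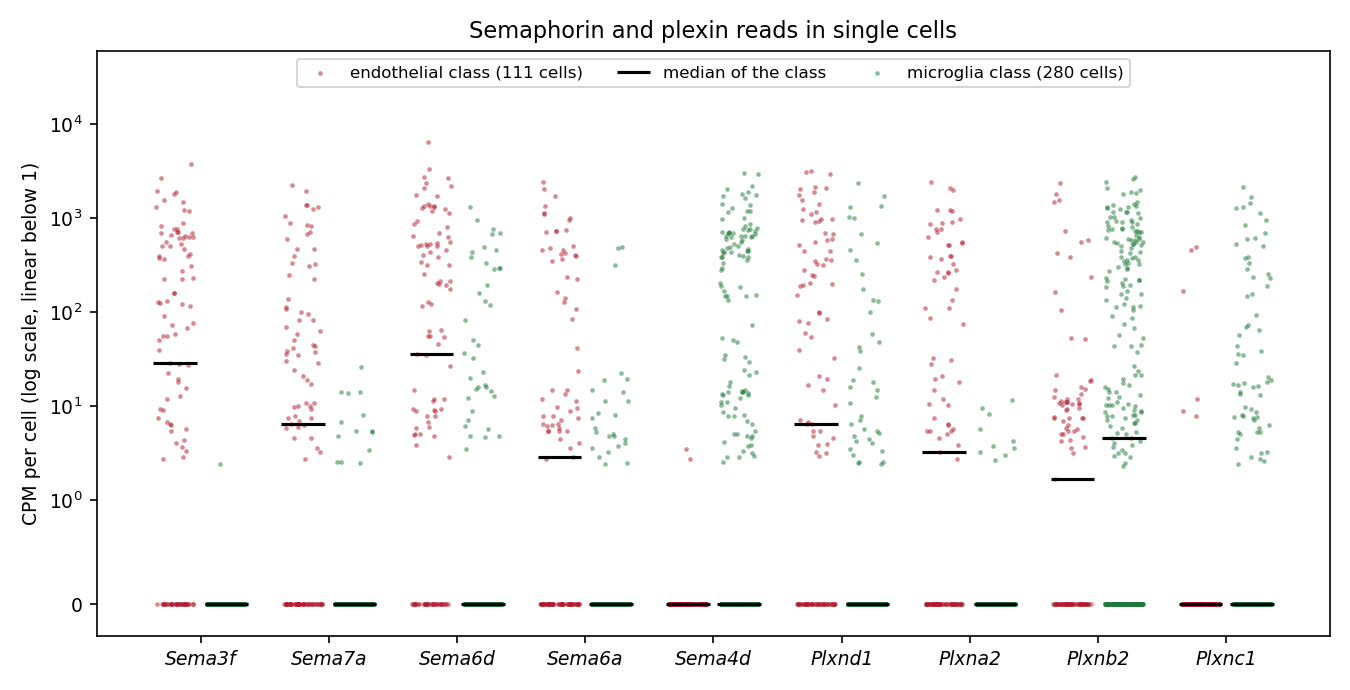
CPM of each of the 9 genes in every cell (log scale, linear below 1), with endothelial cells in red, microglia-class cells in green and the median of each class as a black line. Each gene shows a block of cells at 0 in both classes, and the highest value, 6377 CPM, is an endothelial cell for Sema6d.

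**Figure D2:**
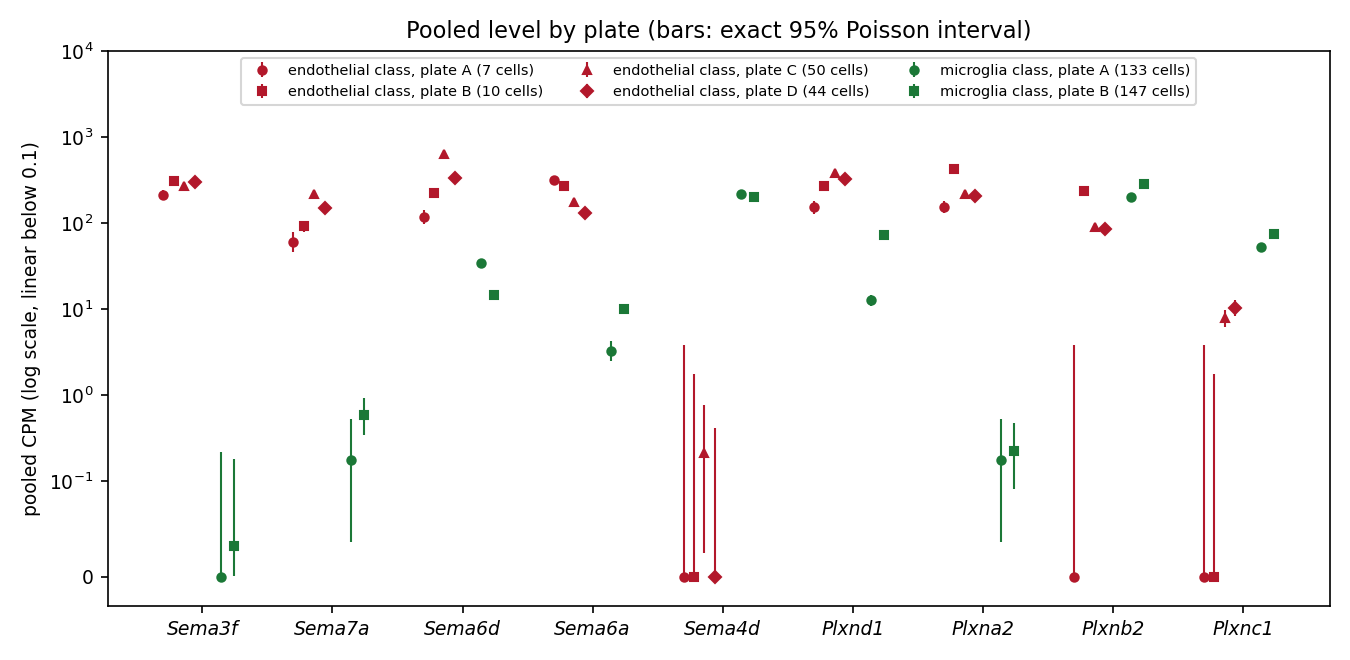
Pooled CPM of each gene on each plate (log scale, linear below 0.1), with exact 95% Poisson intervals, for the 4 plates with endothelial cells (red) and the 2 with microglia-class cells (green). All 4 endothelial plates lie above both microglia-class plates for Sema3f, Sema7a, Sema6d, Sema6a, Plxnd1 and Plxna2, while Plxnb2 runs from 0 to 238 CPM over the endothelial plates.

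Even in the class where it was higher, each of the 9 transcripts was carried by fewer than 50% of cells. Of the 14989 genes, 3.3% reached 50% of endothelial cells at 10 reads and 2.39% reached 50% of microglia-class cells, so this is common in these data. For the 6 endothelial genes, the 10% of endothelial cells with most reads of the gene held between 51.5% (Sema3f) and 73.6% (Sema7a) of its reads. This ranking is not corrected for depth. The coefficients of variation of their CPM per cell lay between 1.82 and 2.33. Nrp1, a neuropilin, had a coefficient of 0.687 and was carried by 92.8% of the same cells, and Kdr had 0.592 and 97.3%. Both stood far higher in endothelial cells (2652 and 2888 CPM) than the 6 endothelial genes (168 to 445 CPM). Nearer in level, the integrin chain Itga1 (434 CPM) had a lower coefficient than the 6 genes, 1.395. Nrp2 (117 CPM) and the semaphorin Sema3c (100 CPM) had higher ones, 3.09 and 3.18. The part of level in this spread was not tested. For the 3 genes of the microglia class the top 10% of cells held 66.1% (Plxnb2), 72.4% (Sema4d) and 97.6% (Plxnc1) of the reads. Depth moved with these shares: microglia-class carriers of Sema4d had a median of 185849 gene reads and the other cells 134143, and endothelial carriers of Sema6d 185709 and 146566. Thinning every cell to 71000 reads dropped 34 microglia-class and 0 endothelial cells. The share of endothelial carriers went from 47.7% to 37.8% for Sema3f, 28.8% to 18.9% for Sema7a and 47.7% to 42.3% for Sema6d. It went from 40.5% to 36.0% for Plxnd1, 31.5% to 27.0% for Plxna2 and 26.1% to 23.4% for Sema6a. In the microglia class it went from 33.2% to 29.7% for Plxnb2, 25.4% to 24.4% for Sema4d and 9.64% to 7.72% for Plxnc1.

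An endothelial cell usually carried a few of the 6 endothelial genes and seldom many. The most common number was 2 (42 of 111 cells, 37.8%), followed by 3 (32 cells), 1 (16 cells), 4 (9 cells) and none (9 cells). Carrying 5 was seen in 3 cells and all 6 in none. Cells with no carried gene had a median of 110490 gene reads and those with 4 had 222691. In the microglia class 241 of 280 cells (86.1%) carried none of the 6 and 1 cell carried 2. Of the 3 genes higher in the microglia class, 135 of its 280 cells carried none, 104 carried 1, 36 carried 2 and 5 carried all 3.

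**Figure D3:**
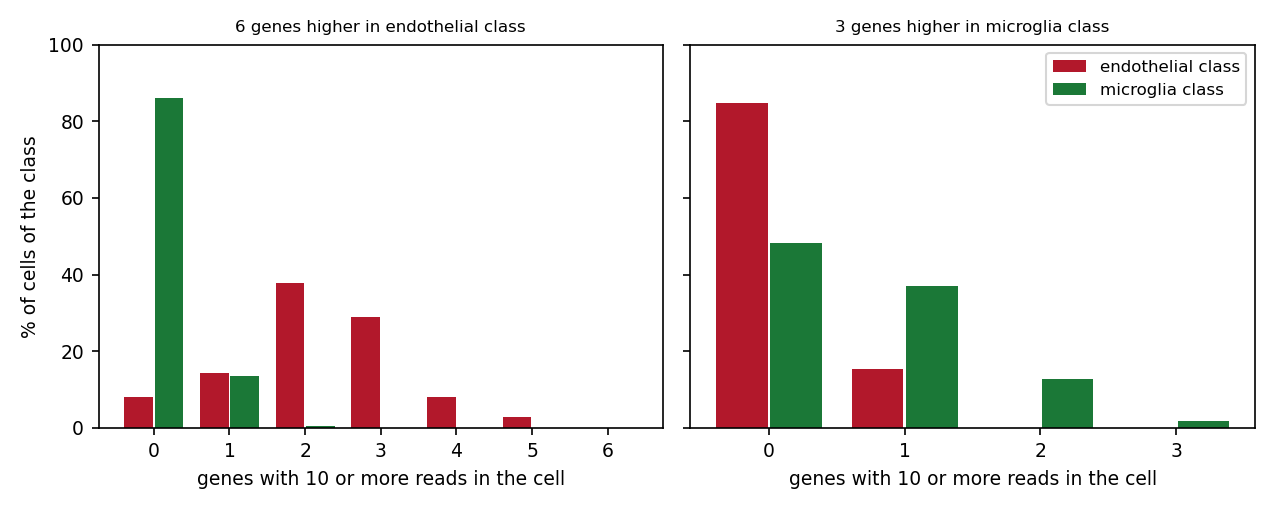
Share of cells (in %) by the number of genes with 10 or more reads in the cell, for the 6 genes higher in endothelial cells (left) and the 3 higher in the microglia class (right), with endothelial cells in red and the microglia class in green. The endothelial cells peak at 2 of 6 genes, and 48.2% of microglia-class cells have none of their 3.

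Genes were set side by side in 17 pairs, among them ligands and receptors known as partners. Some pairs joined ligands with each other, such as Sema6a with Sema6d, or receptors with each other, such as Plxnb2 with Plxnc1. The Sema7a and Plxnc1 pair was split between classes, with the ligand at 168 and 0.442 CPM and the receptor at 7.68 and 66.2 CPM in endothelial cells and the microglia class. A single endothelial cell carried both. The Sema6a and Plxna2 pair stood in the same class, and 11 of 111 endothelial cells (9.91%) carried both, 37.9% of the Sema6a carriers against 29.3% of the other cells having Plxna2, though the Spearman correlation over the 111 cells was -0.084. For Sema4d and Plxnb2, 32 of 280 microglia-class cells (11.4%) carried both, and Plxnb2 was present in 45.1% of Sema4d carriers and 29.2% of the other cells. The Spearman correlation of their log2(CPM + 1) values over these 280 cells was 0.176, and Pearson's was 0.169, in cells that also share depth. Both genes were also highest in the same cluster of the class, described below, where 25 of 46 cells carried each. The part of the clusters in their meeting was not tested. Cd72, the other Sema4d receptor, was carried by 49 microglia-class cells, 17 of them with Sema4d. Other pairs leaned the opposite way in endothelial cells. Plxnd1 was carried by 32.1% of Sema3f carriers and 48.3% of the other cells, Plxna2 by 22.6% and 39.7%, and Nrp2 by 15.1% and 22.4%, with 8 of 111 cells carrying Sema3f and Nrp2. Plxna2 was carried by 28.3% of Sema6d carriers and 34.5% of the other cells. Sema3f and Nrp1 met in 48 cells, with Nrp1 in 90.6% of Sema3f carriers and 94.8% of the other cells. Nrp1 was carried by 95.6% of the endothelial Plxnd1 carriers and 90.9% of the other endothelial cells. In the microglia class 5 of the 16 Plxnd1 carriers (31.3%) carried it, against 48.1% of the other cells. These are transcripts within a cell or class, and binding between cells was not measured.

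Levels of different genes were compared only as CPM per kilobase of merged exons, with lengths from GENCODE M21. In endothelial cells Sema3f (54.2), Sema7a (51), Plxnd1 (45.5) and Sema6d (42.1) came first, then Sema6a (19.7), Plxna2 (13.4) and Plxnb2 (12.8), with Plxnc1 (0.92) and Sema4d (0.0122) last. Every pair of neighbours in this order overlapped in its range over the 4 plates. In the microglia class Plxnb2 (33) and Sema4d (27.1) came first and overlapped over the 2 plates, followed by Plxnc1 (7.93), Plxnd1 (6.99), Sema6d (2.05) and Sema6a (0.861). Sema4d did not overlap Plxnc1, since its lower plate stood at 26.3 and the higher plate of Plxnc1 at 8.86. Sema7a (0.134), Plxna2 (0.0123) and Sema3f (0.00405) closed the order.

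The microglia class held several kinds of cells, so the genes were also read in 5 clusters, made from its cells with all semaphorin and plexin genes left out. Cluster 4, with 46 cells, was microglia-like: 50% or more of its cells had a read of each of the 10 microglia markers, and Slc2a5, Sall1, Adgrg1 and Sparc were among its leading genes, as was Ecscr, known from endothelium. Cluster 1, with 81 cells, was border-associated-macrophage-like, after the macrophages of vessels and meninges, where 9 of 10 such markers had a read in 50% or more of the cells, with a summed level of 16736 against 4725 CPM in the other cells. That many were also read at this share in clusters 3 and 5, and none was among the 10 leading genes, so the name rests on their level. Cluster 2 stood next, with 8 of 10 markers and 11568 against 7586 CPM in the other cells. Clusters 2, 3 and 5 (68, 50 and 35 cells) were left unnamed. Cluster 2 had a median of 80597 gene reads, the lowest, and cluster 5, led by Napsa, had the highest sum of MHC class II and dendritic cell markers, 23150 CPM against 5817 in the other cells.

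Sema4d and Plxnb2 were highest in the microglia-like cluster. Sema4d stood at 364 (352 to 376) CPM there and at 92.1, 200, 180 and 249 CPM in clusters 1, 2, 3 and 5, the last being 164 CPM without 1 cell. It was carried by 25 of 46 microglia-like cells (54.3%, 39.0 to 69.1) and 13 of 81 cells of cluster 1 (16%, 8.83 to 25.9). On plates A and B the microglia-like cluster held 412 and 336 CPM of Sema4d and cluster 1 124 and 61.7, so the order of these clusters was the same on both. Plxnb2 stood at 409 (396 to 422) CPM and was carried by 25 of 46 microglia-like cells, but its plates differed, with 189 CPM on plate A and 535 on plate B. On plate A cluster 2 (327 CPM) and cluster 3 (256 CPM) were higher. The median of gene reads was 209250 in the microglia-like cluster and 132084 in cluster 1, and the part of depth in these differences was not tested.

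Plxnc1 and Plxnd1 had the opposite pattern. Plxnc1 was close to absent from the microglia-like cluster, at 0.507 (0.165 to 1.18) CPM with 0 of 46 carriers, which allows a share of up to 6.52%. It stood at 94 CPM in cluster 1 and 141 in cluster 5, with 12 of 81 and 9 of 35 carriers, and 68.4% of its reads in cluster 3 came from 1 cell. With the microglia-like cluster alone against endothelial cells, the log2 ratio of Plxnc1 was -2.53, higher in endothelial cells, in place of 2.95 for the whole class. Plxnd1 was found mainly in cluster 5, at 251 (240 to 261) CPM, with 12 of the class's 16 carriers and 88% of its reads, 43.2 CPM on plate A and 306 on plate B. In the microglia-like cluster it stood at 0.406 (0.111 to 1.04) CPM, and in clusters 1 to 3 at 2.81, 17.2 and 14.9 CPM, of which single cells gave 71.1%, 79.8% and 95.5% of the reads. Sema6d was at 38.9 and 38.5 CPM in clusters 1 and 2 and 20.5 in cluster 3 (24.3 and 13.3 in clusters 2 and 3 without 1 cell each), 6.19 in the microglia-like cluster, where 1 cell gave 98.4% of the reads, and 0.352 in cluster 5.

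**Figure D4:**
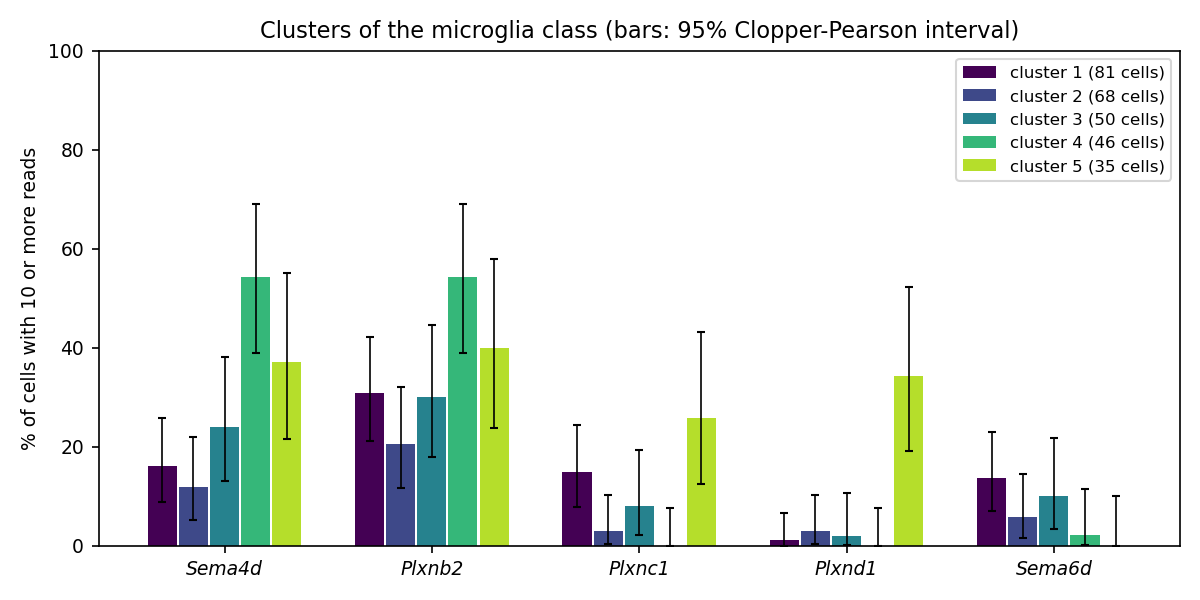
Share of cells (in %) with 10 or more reads of Sema4d, Plxnb2, Plxnc1, Plxnd1 and Sema6d in the 5 clusters of the microglia class, with 95% Clopper-Pearson intervals. Cluster 4, the microglia-like cells, is highest for Sema4d and Plxnb2 (54.3% each) and at 0 for Plxnc1 and Plxnd1, and cluster 5 stands out for Plxnd1 (34.3%).

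Fewer of the remaining family genes were read, a contrast that may partly follow from the choice of the 9 with earlier results known. Of the other 15 semaphorins, 7 were under 1 CPM in both classes, including Sema3e, the ligand of Plxnd1, and Sema3a. Against the backgrounds of 11.7% and 19.9%, Sema3c, Sema3g and Sema4c (3 genes) passed 4-fold toward endothelial cells, and Sema4a and Sema4g (2 genes) toward the microglia class. Sema4a, a class 4 ligand of immune cells, was as one-sided as Sema4d in kind, at 196 CPM against 0.328, and was carried by 61 of 280 microglia-class cells and 0 of 111 endothelial cells. Sema3c, a secreted ligand, was at 100 CPM against 1.09, but at 440 CPM on endothelial plate A, where 4 of 7 cells carried it, and 67.9 to 90.5 CPM on the others, where without 1 cell each it was 6.59 to 47.7 CPM. Sema3g, at 5.2 CPM in endothelial cells, was at 3.0 CPM without 1 cell. Of the other 5 plexins, 3 were measured and none of these passed 4-fold. Plxna4 stood at 38.6 CPM in the microglia class against 36.3 CPM in the endothelial class, Plxna1 at 22.4 and 19.9, and Plxna3 at 3.05 and 5.85. Few cells carried them: 19 microglia-class and 5 endothelial cells for Plxna4, 14 and 2 for Plxna1, and 3 and 1 for Plxna3. Without the cell with most reads the endothelial levels were 19.3, 9.01 and 0.0945 CPM, so their nearness in the classes rests on single cells. The plates were not alike: the other plexins summed to 0 and 0.471 CPM in endothelial cells of plates A and B and to 65.7 and 81.0 on plates C and D, against 58.3 and 68.2 in the microglia class. The medians of log2 microglia class over endothelial class were -0.08 for the 8 measured semaphorins and 0.09 for the 3 measured plexins, against 0.36 for all genes.

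**Figure D5:**
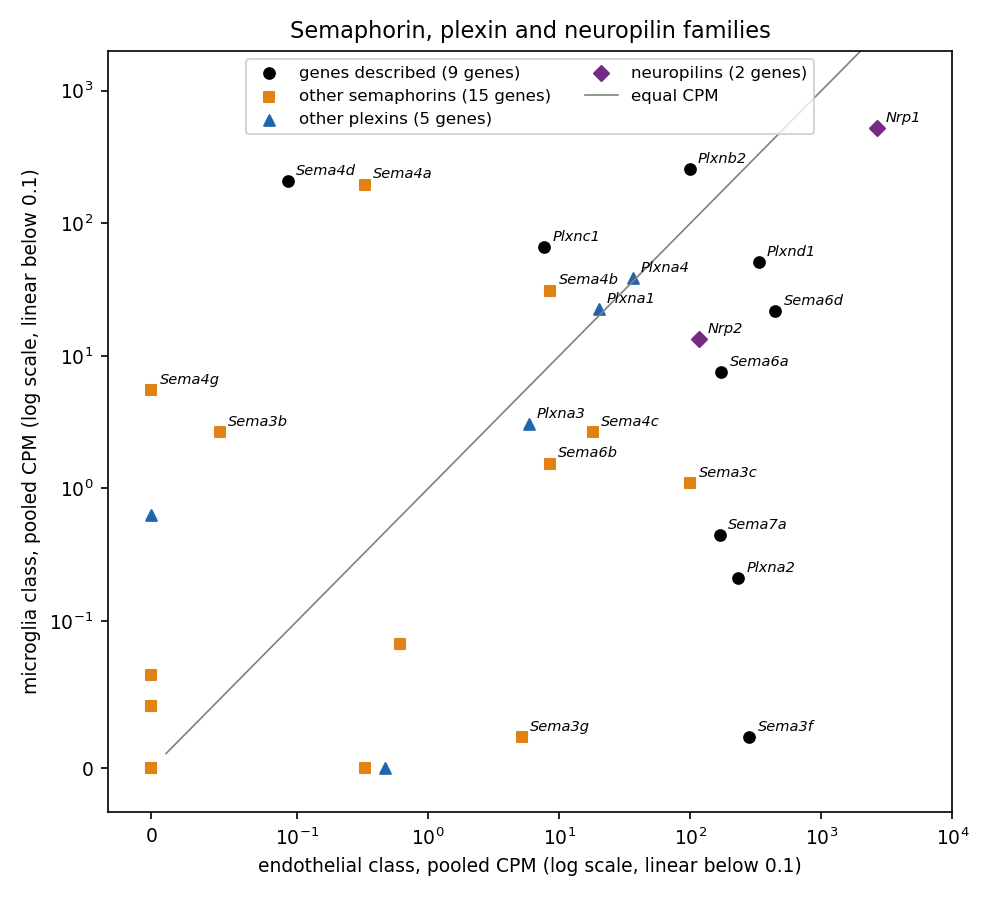
Pooled CPM of each semaphorin, plexin and neuropilin in the microglia class (vertical) against the endothelial class (horizontal), both on log scales that are linear below 0.1, with the line of equal CPM. Sema4d and Sema4a lie at the upper left, Sema3f, Sema7a and Plxna2 at the lower right, and Plxna1 and Plxna4 beside the line, with 2 and 5 endothelial carriers.

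Of 15 co-receptors at the membrane, 12 were measured, 6 of them past 4-fold toward endothelial cells (11.7% of all genes) and 5 toward the microglia class (19.9%), with a median log2 ratio of -1.76. Nrp1, the neuropilin that also binds VEGF, was at 2652 CPM against 524 (5.06-fold), and Nrp2, the receptor of Sema3f, at 117 against 13.3 (8.79-fold). Nrp2 was at 11.4 CPM on endothelial plate A, below the 16.9 of the microglia class there. On plate B it was at 31.6 CPM in endothelial cells against 11.3, and at 10.9 against 7.46 without the cell with most reads in each class. Itga1, an integrin chain that pairs with beta-1 and binds Sema7a, was at 434 CPM against 1.66 (0.675 without 1 microglia-class cell), while its partner Itgb1 was at 714 and 316 CPM. On the other side stood Cd72, at 112 CPM in the microglia class with 1 endothelial read, and Trem2 and Tyrobp, which form a complex with Plxna1, at 1095 against 3 and 1384 against 7.16 CPM. A single endothelial cell gave 73.4% and 77.1% of the endothelial reads of these last genes.

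Of 38 cytoplasmic effectors, 35 were measured, 5 past 4-fold toward each class and 25 between, with a median of -0.19. The shares over all genes were 11.7% toward endothelial cells and 19.9% toward the microglia class, so the list lay near the background. Rras, the small GTPase on which plexins act, was at 344 CPM in endothelial cells against 29.6, and Rnd1, a GTPase that opens plexin A1, at 71.9 against 1.01 (0.105 without 1 microglia-class cell). In the microglia class Pak1, a kinase below Rac, was at 118 CPM with 1 endothelial read, and Rap2a, another small GTPase, at 91.5 against 4.49 (2.12 without 1 endothelial cell). The shared machinery was close in level: Cfl1, the actin-severing protein cofilin, had 627 CPM in endothelial cells against 726 in the microglia class, Rap1b 541 against 506, and Rac1 801 against 466.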

How the data were processed

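Reads of single cells from vascular fragments of adult mouse brain (391 cells, Smart-seq2) were deposited as whole-number counts per gene, not normalized. Per the submitters' processing notes, featureCounts, Subread 1.4.6-p5, SAMtools 1.16.1 and build GRCm39 were used; the sources used here do not give the aligner, annotation, or handling of strand and multiply mapped reads. Overlapping and antisense genes are therefore uncertain. Columns were matched to the labels' classes through the deposited cell table, after its name prefixes were removed. 0 count columns were left out, and 0 were identical. No filter on cells and no doublet caller was applied.

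Reads were pooled by class or plate into CPM, with exact Poisson intervals, and folds have exact conditional binomial intervals (95%). Calls need 1 CPM in either class and 4-fold on log2(CPM + 1), a scale that understates folds of low genes. A side with 0 reads was set to 3 reads. The plate is the start of the column name: A and B hold both classes (133 and 147 microglia-class, 7 and 10 endothelial cells), C and D 50 and 44 endothelial cells. Clusters came from 2000 variable genes without semaphorins and plexins, 20 principal components, 15 neighbours and Leiden at resolution 0.5. RefSeq and GENCODE M21 tables are of an older build (GRCm38), used for promoter windows and exon lengths only. The genes and lists were chosen with earlier results of these data known. Named were the 9 genes, per list the 3 highest in each class and those past 4-fold, and the 3 genes most correlated with each of the 9; of these only some are printed. The plan for levels by class, spread and pathway lists had no test, since each class is 1 sample. The pooled ratio was tested on simulated data. Alternatives varied pooling, scaling (edgeR 4.0.16 TMM), pseudocount, filter, fold, plates, cells, depth and clustering. Software was leidenalg 0.10.2 with igraph 0.11.9, scikit-learn 1.9.0, scipy 1.17.1, matplotlib 3.10.9, Python 3.11.15 and R 4.3.3.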

Additional observations from a re-analysis of the deposited data

How the results depend on the processing

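Over 14 alternative settings the log2 ratio of the 9 genes was computed 126 times and changed sign once, for Plxnc1 in the microglia-like cluster alone (-2.53 in place of 2.95). Its size was less steady: 53 values stayed within the limits that counting error gives the reported ratio, and 72 kept the sign but left them. The values ran, for instance, from 0.26 to 7.65 for Plxnb2, -7.89 to -1.89 for Plxnd1 and -5.95 to -1.74 for Sema6d. The 6 endothelial and 2 microglia-class calls stayed within 5 to 7 and 1 to 3. At a fold of 8, 1 gene, Sema4d, was higher in the microglia class. Of the other genes of the family and pathway, 14 were called for endothelial cells and 12 for the microglia class. These counts were 9 and 7 with a pseudocount of 10 CPM (5.54% and 6.68% of all genes, against 11.7% and 19.9%), 8 and 23 on plate A (10.9% and 46.5%), 8 and 21 on plate B (11.5% and 48.4%), and 8 and 18 with both plates together (11.1% and 39%). The median log2 ratio of all genes was 0.36 as reported, 1.73 on plate A and 1.87 on plate B, which hold 7 and 10 endothelial cells. Genes read in at least 50% of cells were 7 of 9 in endothelial cells, 4 after thinning and 0 at 10 reads, and 1 of 9 in the microglia class, 0 after thinning and 0 at 10 reads. At Leiden resolution 1.0 the microglia-like cluster held 377 CPM of Sema4d and 424 of Plxnb2, against 364 and 409, and it shared 45 of its 46 cells. Without the cell with most reads on plates A and B no gene changed sign there. This setting, removing cluster 2, and centring on the median of all genes, were chosen after seeing the data, and the last 2 left 6 and 2 genes. The cause of these shifts was not tested. No paired analysis was possible because the labels tie no cell to an animal and the result comes from no test.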

Other observations

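Other genes of the pathway also differed between the clusters of the microglia class. Sema4a was lowest in the microglia-like cluster, at 21.8 CPM with 1 carrier that gave 93.0% of the reads, where Sema4d was highest, and stood at 495 CPM with 57.1% of cells in cluster 5. On plate A cluster 2 was lower (2.40 CPM against 57.1). Nrp1 was at 895 CPM in cluster 1 and 807 in cluster 3, against 97.3 in the microglia-like cluster and 81.9 in cluster 5. The class A plexins parted: Plxna1 was at 45.7 CPM in cluster 1 and 0.305 in the microglia-like cluster, and Plxna4 at 42 (26.2 without 1 cell) and 73.5. Cd72 was at 300 CPM in cluster 3, where it is also among the leading genes that define the cluster, and 12.9 in cluster 1. Trem2 was at 2183 CPM in the microglia-like cluster and 100.4 in cluster 5, or 49.4 without 1 cell.

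The genes whose levels over cells were most like those of the 9 were only weakly so. Over 111 endothelial cells the nearest was Lrp5 for Sema3f (Spearman 0.299, Pearson 0.3), Cyb5a for Sema6a (0.322 and 0.316), Tra2b for Sema6d (0.343 and 0.346), Dnaja2 for Sema7a (0.4 and 0.361), Epas1 for Plxnd1 (0.34 and 0.218) and Bmpr2 for Plxna2 (0.270 and 0.258), out of 1201 genes read in at least 50% of cells. Over 280 microglia-class cells it was Bin2 for Sema4d (0.29 and 0.302), Mertk for Plxnb2 (0.245 and 0.242) and Smim14 for Plxnc1 (0.232 and 0.211). Plxdc2 was among the 3 nearest of both Sema4d (0.264) and Plxnb2 (0.222). All cells share plates and differ in depth, and no p-value is given.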
